A study of Mus musculus with 4 samples.

Results

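The promoters examined here were those with an ATAC-seq peak in all 4 libraries of the series. ATAC-seq marks open chromatin, because the Tn5 transposase inserts adapters where DNA is not wrapped in nucleosomes, and a peak is a place where insertions pile up above the local background. The cells were im-scWAT cells, made from the stromal cells of subcutaneous white fat of 5-week-old mice and immortalized with SV40 large T antigen. They carried normal Jmjd1a (Jmjd1a +/+, WT) or were homozygous for the HY allele (Jmjd1a HY/HY, HY), a histidine-to-tyrosine change predicted to remove the H3K9 demethylase activity of the enzyme. Nuclei were taken on day 0 (D0), before differentiation, or on day 8 (D8). The D8 cells had received indomethacin, dexamethasone, 3-isobutyl-1-methylxanthine, rosiglitazone, insulin and T3 for 2 days and then insulin, T3 and rosiglitazone for 6 days, which drives them towards beige adipocytes. Each genotype is known here as 1 immortalized culture, and each group was 1 library, so no difference below has a replicate check, no test was made, and intervals cover counting error only. All 4 groups share the large T antigen, an agent that drives cell division.

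The 4 peak lists were merged on chromosomes 1 to 19, giving 98469 regions, of which 23856 held a peak of every list. A merged region was kept as a member when it held a peak of every list and overlapped the stretch between -1000 and +100 bp of any transcription start site (TSS) in the annotation (GENCODE vM1, mm9). This left 11162 members, 11.3% of all merged regions and 46.8% of those found in every list. Presence of a peak chose the members, so that presence is not a result, and neither is the size of the class. The other 12694 regions found in every list, here called distal, and the 6012 promoter regions with a peak in 1 to 3 lists served for comparison. Membership is a threshold on measured signal. Here and below, 4 values in a row belong to the libraries WT D0, WT D8, HY D0, HY D8, in this order, and a tag is a read or fragment as the peak caller counted it. The weakest members were at Gm5623, Cd9, Pax3, Rap1gap and Rpl9-ps3. At Cd9, a tetraspanin of the cell surface, the summit held 8, 9, 17 and 6 tags, and the weakest of its peaks had a -log10 q of 1.37. At Pax3, a developmental transcription factor, it held 36, 15, 34 and 4 tags. Just outside were promoter regions with a peak in 3 lists and none in the remaining list, such as Zfp952 (19 tags in WT D0, 21 in HY D0, 14 in HY D8, no peak in WT D8) and Gm17252 (22, 38 and 14 tags in the same 3 libraries). Of the 1253 promoter regions that missed 1 list, 752 missed WT D8, 303 HY D8, 133 WT D0 and 65 HY D0.

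A promoter that stays open in unlike cell states is typically that of a housekeeping gene. Such promoters usually lie in CpG islands, stretches of GC-rich DNA that kept their CpG dinucleotides because they are unmethylated in the germ line, and they carry sites for broadly expressed factors such as SP/KLF, NFY, ETS, NRF1 and YY1. Upstream of the TSS they hold a nucleosome-depleted stretch where the transcription machinery assembles. Promoters of genes used by 1 cell type are more often poor in CpG and depend on nearby enhancers. Adipocyte differentiation opens and closes enhancers in large numbers while the housekeeping promoters serve both states.

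The following sequences show what the members are made of, first at 5 promoters whose level differed by less than 1.5-fold between all libraries compared. Mtmr4, a lipid phosphatase, is shown as the member of a protein-coding gene with the highest level whose summit sequence is unique in the genome, Kdm3a because it encodes Jmjd1a, Ndufs8 and Cox5a for complexes I and IV of the respiratory chain, and Rps19 for the ribosome. Each stretch is the 150 bases that end at the base before the TSS, 5′ to 3′ on the strand of the gene (mm9). Capitals mark matches on either strand to any of the 9 strings searched below. Those present are the GC box letters GGGCGG, the CCAAT box of NFY and the ETS letters CCGGAAG.
Mtmr4 (chr11:87405514-87405663, plus strand): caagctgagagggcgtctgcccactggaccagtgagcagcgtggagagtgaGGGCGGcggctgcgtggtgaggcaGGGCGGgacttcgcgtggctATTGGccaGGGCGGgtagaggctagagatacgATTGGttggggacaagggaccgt
Kdm3a (chr6:71582900-71583049, minus strand): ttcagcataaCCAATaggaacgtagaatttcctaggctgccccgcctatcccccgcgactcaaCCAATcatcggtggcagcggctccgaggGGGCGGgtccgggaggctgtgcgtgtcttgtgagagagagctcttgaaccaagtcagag
Ndufs8 (chr19:3912718-3912867, minus strand): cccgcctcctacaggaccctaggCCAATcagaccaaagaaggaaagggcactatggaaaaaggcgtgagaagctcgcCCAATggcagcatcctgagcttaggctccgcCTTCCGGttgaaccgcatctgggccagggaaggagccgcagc
Cox5a (chr9:57368889-57369038, plus strand): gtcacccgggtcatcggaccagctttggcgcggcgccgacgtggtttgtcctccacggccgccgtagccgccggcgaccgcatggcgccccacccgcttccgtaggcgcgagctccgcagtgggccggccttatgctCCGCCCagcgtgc
Rps19 (chr7:25669240-25669389, plus strand): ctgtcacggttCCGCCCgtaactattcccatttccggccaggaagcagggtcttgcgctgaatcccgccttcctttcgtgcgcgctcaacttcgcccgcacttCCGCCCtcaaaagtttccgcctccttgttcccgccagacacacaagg
The first of these holds 11 CpG dinucleotides, Kdm3a 10, Ndufs8 7, Cox5a 23 and Rps19 14. The following members were chosen because their level differed more than 4-fold between the days; for them 75 bases on each side of the WT D8 summit are shown. Thrsp and Acss3 belong to lipid synthesis and short-chain acyl-CoA metabolism, Mrap is the accessory protein of the melanocortin-2 receptor, and Dnm1 is the neuronal dynamin of vesicle scission.
Thrsp (chr7:104567321-104567470, minus strand): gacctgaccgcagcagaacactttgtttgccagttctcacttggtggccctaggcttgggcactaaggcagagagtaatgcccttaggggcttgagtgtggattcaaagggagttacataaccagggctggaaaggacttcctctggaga
Mrap (chr16:90737291-90737440, plus strand): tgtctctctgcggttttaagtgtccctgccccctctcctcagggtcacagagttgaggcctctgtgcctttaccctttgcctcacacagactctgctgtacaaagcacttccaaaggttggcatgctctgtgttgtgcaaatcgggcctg
Acss3 (chr10:106560702-106560851, minus strand): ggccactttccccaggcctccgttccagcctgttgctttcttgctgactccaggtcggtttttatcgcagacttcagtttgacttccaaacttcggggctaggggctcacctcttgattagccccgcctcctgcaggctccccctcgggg
Dnm1 (chr2:32173585-32173734, minus strand): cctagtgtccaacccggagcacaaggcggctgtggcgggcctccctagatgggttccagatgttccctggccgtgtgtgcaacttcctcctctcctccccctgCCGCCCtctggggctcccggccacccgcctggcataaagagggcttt
The Thrsp stretch holds 1 CpG, that of Mrap 2, that of Acss3 6 and that of Dnm1 7, and only the last contains any of the strings. Relative to the TSS they run from -1230 to -1081 bp at Thrsp, -1278 to -1129 at Mrap, -127 to +22 at Acss3 and -883 to -734 at Dnm1. The stretches of the first set end at the TSS, so the CpG counts of these sets come from unlike positions.

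Members touched the promoter windows of 10919 of the 21418 protein-coding genes on these chromosomes, or 51.0% (95% Wilson interval 50.3 to 51.6). Another 2171 genes (10.1%) had a promoter peak in 1 to 3 lists only and 8328 (38.9%) in none. The lists below are of chosen genes, mostly 20 each, and describe those genes only. Of the cytosolic ribosomal protein list, 20 of 20 genes had a member, as did 20 of 20 genes each for proteasome subunits, cytosolic tRNA synthetases, RNA polymerase II with its general factors, the spliceosome, the nuclear-encoded respiratory chain and the cell cycle. A share of 20 of 20 has a lower limit of 83.9%, against the 51.0% of all genes. Over all annotated protein-coding genes whose symbols start with Rpl the count was 42 of 84, and for Rps it was 38 of 54, so the chosen ribosomal genes do not stand for every gene record of that name. The mitochondrial biogenesis list had 19 of 20. Its exception was Ppargc1a, the coactivator Pgc1a, with a promoter peak only at D8 (14 tags in WT and 15 in HY). The H3K9 methylation list had 20 of 21 gene records, the exception being Phf2, with a peak in HY D0 only (10 tags).

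Of 20 adipocyte genes, 14 had a member (70.0%, 48.1 to 85.5), of 20 thermogenic genes 7 (35.0%, 18.1 to 56.7) and of 20 preadipocyte and fibroblast genes 13 (65.0%, 43.3 to 81.9). Each interval includes the 51.0% of all genes. Among the adipocyte genes, Pparg and Cebpa, the regulators of the lineage, were already open at D0, as were enzymes of fat synthesis and breakdown such as Fasn, Scd1, Dgat1 and Lpl. Retn and Slc2a4, the insulin-responsive glucose transporter, also had peaks on both days. Several markers of mature fat cells were not members. Fabp4 had 46 tags at D8 in both WT and HY and no promoter peak at D0, Adipoq 26 and 25, Plin1 28 and 29, and Cd36 40 and 42, while Cfd and Lep had no promoter peak in any list. The thermogenic genes with a member were Ppara, Elovl3, Cox7a1, Kcnk3, Letmd1, Zfp516 and Pank1. Cpt1b, which takes fatty acids into mitochondria, had a promoter peak at D8 only (27 tags in WT and 18 in HY), Cidea had one in WT D8 (9), HY D0 (7) and HY D8 (13), and Ucp1, Dio2, Cox8b, Otop1, Bmp8b and Esrrg had no promoter peak. On the preadipocyte and fibroblast list Col3a1 (24 tags in WT and 32 in HY) and Thy1 (28 and 32) had a promoter peak only at D0.

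Markers of other cell types were mostly outside the class. Of 10 macrophage markers none had a member and 8, among them Ptprc, Emr1 and Csf1r, had no promoter peak in any list. Of 20 liver genes 0 had a member, which allows a share of up to 16.1%. Of 10 endothelial markers only Egfl7 had a member (23, 20, 28 and 19 tags), 5 others, among them Cdh5 and Tie1, had no promoter peak, Kdr had one in WT D0 (21), HY D0 (21) and HY D8 (4), Pecam1 in WT D0 (9), and Tek (23 tags in WT and 19 in HY) and Vwf (13 and 17) had one at D0 only. Of 20 neuronal genes Dlg4, Grin1 and Nrgn had one, and Dlg4, with 56, 22, 63 and 20 tags, was 2-fold lower at D8 in both genotypes. Of 1106 olfactory receptor genes 1 had a member, Olfr99, with 16, 12, 16 and 12 tags. Genes grouped by the start of their symbol, a grouping made after the values were seen, gave 94 groups of at least 20 genes. In 3 groups every gene had a member: the large subunit of the mitochondrial ribosome (Mrpl, 47 of 47), centrosomal Cep proteins (20 of 20) and the Polr subunits of RNA polymerases (27 of 27). The small mitochondrial subunit (Mrps) had 29 of 30. Groups in between included Cox (20 of 25), Atp (52 of 78) and the solute carriers (Slc, 170 of 343). The translation factors (Eif) had 53 of 55, the Mediator subunits (Med) 28 of 29 and the histone genes (Hist) 61 of 67. At the other end, the major urinary proteins (Mup), prolactins (Prl), kallikreins (Klk), carboxylesterases (Ces), keratin-associated proteins (Krtap) and protocadherins beta (Pcdhb) had none, and vomeronasal receptors (Vmn) 1 of 327.

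**Figure D1:**
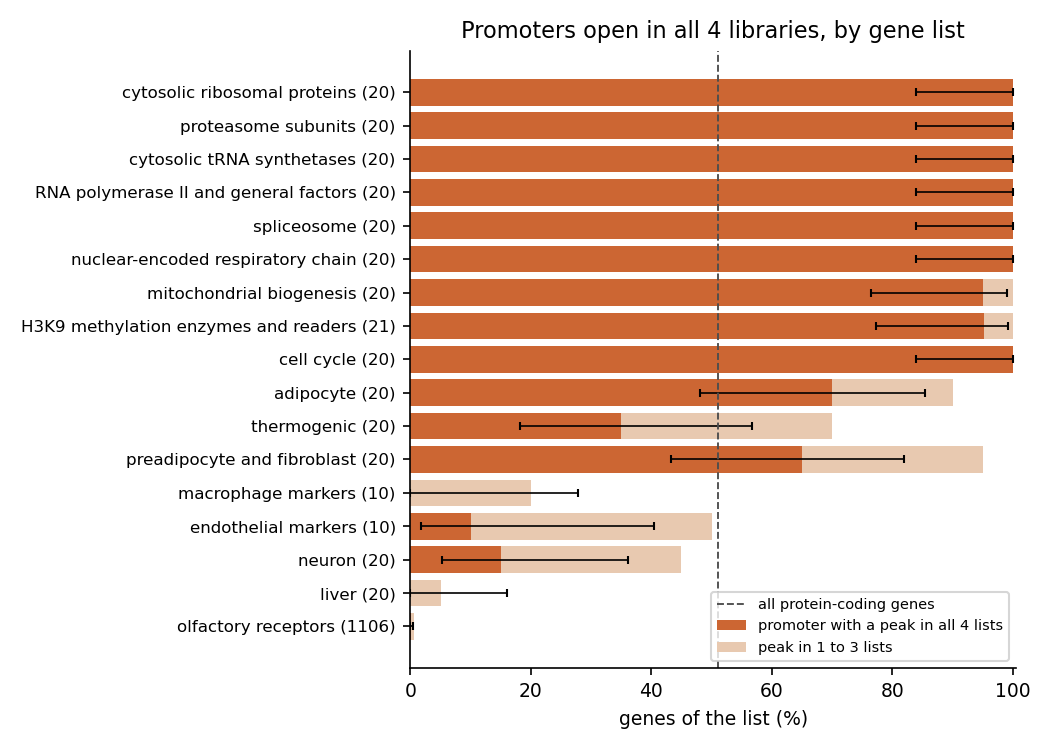
Share of the genes of each list (number of genes in brackets) with a promoter peak in all 4 libraries (dark) or in 1 to 3 lists (light), with 95% Wilson intervals on the dark bars and the 51.0% of all protein-coding genes as a dashed line. The housekeeping lists reach 20 of 20 genes, adipocyte and preadipocyte lists 14 and 13 of 20, and the liver list 0 of 20.

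Summits at members held more tags than at distal regions in every library. The median pileup at the highest summit, the number of overlapping tags there, was 36, 27, 42 and 28 tags. At distal regions found in every list it was 23, 13, 26 and 14. The quartiles overlapped: the lower quartile of members in WT D8 was 17 tags and the upper quartile of distal regions 21. Raw tags follow depth, so levels were divided by the genome-wide background rate of the library, which was 0.659, 0.531, 0.708 and 0.494 tags. Relative to WT D0 this puts the depth of WT D8 at 0.806, of HY D0 at 1.07 and of HY D8 at 0.750. On that scale the medians of members were 54.6, 50.9, 59.4 and 56.7 times background, and those of distal regions 34.9, 24.5, 36.7 and 28.3. Member peaks were also wider, with medians of 671, 431, 764 and 511 bp against 407, 235.5, 456 and 276 bp at distal regions. In the WT D8 library, which had the fewest peaks, 22.1% of members were split into 2 or more peaks, against 10.6% in WT D0, 17.9% in HY D8 and 3.08% in HY D0.

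Members held 17.8%, 34.7%, 15.1% and 27.9% of the peaks, while the lists themselves had 69781, 40226, 76164 and 47794 peaks on these chromosomes. The rule puts at least 1 peak of every list in each member, so these shares depend on the length of the lists and on how many members are split, and the peaks inside members numbered 12411, 13953, 11513 and 13357. Of the 1000 peaks with the highest -log10 p, 782 lay in members in WT D0 and in HY D0, 834 in WT D8 and 832 in HY D8. By the same ranking, 3.64%, 15.3%, 1.44% and 7.47% of the weakest 10% of each list lay in members. For the strongest 10% it was 63.2%, 78.7%, 62.1% and 76.0%. The D8 libraries were shallower and had fewer peaks, and the part of depth in these shares was not tested.

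**Figure D2:**
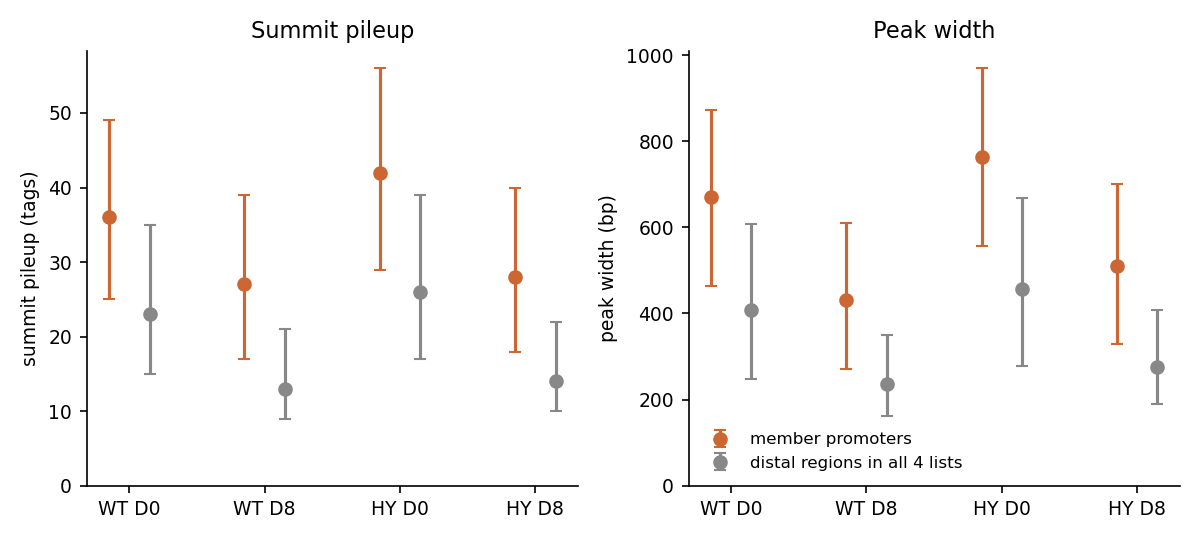
Median and quartiles of the summit pileup in tags (left) and of the peak width in bp (right) in each library, for the 11162 member promoters and the 12694 distal regions found in all 4 lists. Members lie above distal regions in each library, with medians of 27 against 13 tags in WT D8, and both values are lower at D8 than at D0.

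Repeated sequence was frequent among the highest members. Of the 10 with the highest level in their weakest library, 8 had a summit whose 32 bases occur at more than 1 place in the genome, and 2 of those also match the mitochondrial genome (Gm10925 and Gm13340). The summit pileups of Gm10925 were 172, 176, 169 and 176 tags over a local background of 67.6, 73.6, 66.6 and 73.0, so its enrichment was only 2.37 to 2.52. AY036118, a pseudogene locus on chromosome 17 and the widest member at 5762 bp, had a unique summit but a local background of 65.7 to 75.9 tags. Its enrichment was thus only 2.00 to 2.12, and its WT D0 summit lay 5016 bp downstream of the TSS. Across all members 296 (2.65%) had a repeated summit, and the part of reads from the other copies in their values was not tested.

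Among members with a unique summit AY036118 was the highest and Mtmr4 the next. Mtmr4 (chr11:87405160-87406151) had 103, 86, 110 and 91 tags at the stronger of its 2 members, and its level on D8 was 1.04 times that on D0 in WT (exact interval 0.769 to 1.39) and 1.18 times in HY (0.887 to 1.58). Both intervals include equal levels. Sp1, which encodes the factor that binds GC boxes, followed with 97, 88, 111 and 90 tags. Then came Mob3a, Myh9 (non-muscle myosin), Hjurp (the chaperone that places the centromeric histone), Gsk3b (a kinase of the Wnt and insulin pathways), Sin3a (scaffold of a histone deacetylase complex), Ripk2 and Khsrp, with at least 75 tags at each in every library. Kdm3a, the gene of the demethylase itself, had 67, 53, 84 and 60 tags, and was thus open at its promoter in the libraries of both genotypes. Other H3K9 genes included Kdm4b, a demethylase, at 86, 71, 91 and 72 tags and Cbx5, a heterochromatin protein that reads H3K9 methylation, at 66, 59, 82 and 65.

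Members at divergent gene pairs held more tags. The annotation holds 1141 pairs of protein-coding genes that start under 1000 bp apart and point away from each other. Of these pairs 1036 (90.8%, 89.0 to 92.3) had 1 member reaching both promoters, where 51.0% of all protein-coding genes had a member. The promoter windows of such a pair overlap, so 1 peak can reach both, and the shares are not of like units. The 1033 members at such pairs, 9.25% of all, had median pileups of 44, 34, 49 and 36 tags, against 35, 26, 41 and 27 at members with 1 protein-coding gene. The 484 members at no protein-coding gene had 32, 21, 37 and 22. Hjurp and Trpm8, a cold-sensing ion channel used in sensory neurons, start 28 bp apart and shared 1 member with 93, 92, 102 and 82 tags. Usp5 and Cdca3 (63 bp apart) shared one with 94, 68, 95 and 77, and Cdca2 and Kctd9 (96 bp) one with 87, 73, 90 and 78. A peak between a pair cannot be given to either gene.

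The rule used a window that lies mostly upstream of the TSS, so an upstream position of the summits is in part set by it. The median position of the highest summit relative to the nearest annotated TSS was -39, -33, -38 and -33 bp, and from 76.7% to 78.1% of members had it between -200 and +100 bp. By annotation the WT D0 summit was intergenic for 45.8% of members, in a UTR for 27.9%, an intron for 18.5%, a non-coding exon for 4.37% and a coding exon for 3.41%. The summits of the 4 libraries lay a median of 75 bp apart from first to last in members and 83 bp in distal regions. WT D0 and HY D0 summits were a median of 19 bp apart and WT D0 and WT D8 summits 31 bp. Merged members had a median width of 827 bp, and only 24 exceeded 2000 bp, among them Stat6, the interleukin-4 signal transducer, at 2472 bp.

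Sequence was not used to choose the members, and members were richer in CpG than other promoters. Over the 300 bp from 250 bp upstream to 50 bp downstream of 1 TSS per gene (the nearest to the summit where the gene had a promoter peak, the first by coordinate where it had none), the median ratio of observed to expected CpG was 0.803 at genes with a member, 0.511 at genes with a promoter peak in 1 to 3 lists and 0.202 at genes with none. CpG-rich promoters, with at least 50% GC and a ratio of at least 0.6, made up 76.9% of the first (76.1 to 77.7), 38.9% of the second and 7.72% of the third, and 46.1% of all genes. The difference between the first and second was 38.0 percentage points (35.8 to 40.2). These intervals treat genes as independent, which neighbouring genes are not. Because the TSS was not picked alike in the classes, the most upstream TSS of every gene was also used, a setting chosen after seeing the data. The medians were then 0.779, 0.471 and 0.205 and the CpG-rich shares 70.6%, 34.9% and 8.47%.

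**Figure D3:**
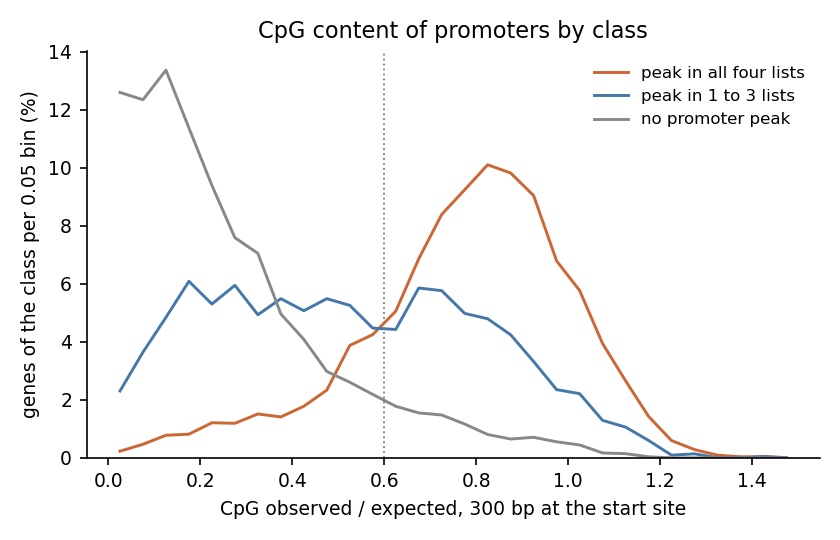
Distribution of the observed over expected CpG ratio in 300 bp at the TSS (x axis), as the percentage of genes of each class per bin of 0.05 (y axis), for genes with a member, with a promoter peak in 1 to 3 lists, and with none; the dotted line marks 0.6. The class medians are 0.803, 0.511 and 0.202.

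Short motifs were searched in the same 300 bp as exact letters on both strands, and none of the strings contains another. A match is a description of the letters, not of a bound factor. The GC box GGGCGG was found at 70.2% of genes with a member, 46.6% of those with a peak in 1 to 3 lists, 14.2% of those with none and 46.0% of all. The ETS letters CCGGAAG, recognised by Gabpa and its relatives, were at 20.3%, 4.89%, 2.26% and 11.7% in the same order of classes, a difference of 15.4 points (14.1 to 16.5) between the first classes. The NRF1 letters GCATGCGC were at 5.85%, 1.89%, 0.80% and 3.49%, the YY1 letters ATGGCGGC at 5.51%, 0.97%, 0.58% and 3.13%, and the CREB/ATF letters TGACGTCA at 3.93%, 1.84%, 0.65% and 2.44%. The E-box letters CACGTG were at 10.5%, 6.73%, 4.54% and 7.82%. The shares of CCAAT lay closer together, at 38.8%, 31.4%, 36.3% and 37.1%. The order was the opposite for TATAAA (5.31%, 9.77%, 23.5% and 12.8%) and for TGANTCA, the letters of the stimulus-responsive AP-1 factors (4.31%, 8.85%, 9.87% and 6.94%). Strings rich in CpG are more frequent in CpG-rich DNA, and the part of base composition in these shares was not tested.

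Some of the letters were most frequent at different places, while others shared one. Over 20-bp bins from -500 to +200 bp, GGGCGG was most frequent from -60 to -40 bp (17.8% of genes with a member), CCAAT from -80 to -60 bp (7.60%) and ETS from -20 to 0 bp (3.77%). The YY1 letters peaked downstream of the TSS, at +20 to +40 bp (1.91%). The NRF1 (0.85%) and E-box (1.32%) letters were most frequent in the same bin as ETS, and those of CREB/ATF (0.62%) in the bin of the GC box. TGANTCA was most frequent from -440 to -420 bp (0.55%) and TATAAA on either strand from -480 to -460 bp (1.02%). In the sequences above, the CCAAT boxes of Mtmr4 start at -55 and -23, those of Kdm3a at -140 and -87, and those of Ndufs8 at -127 and -73 with an ETS match at -42.

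**Figure D4:**
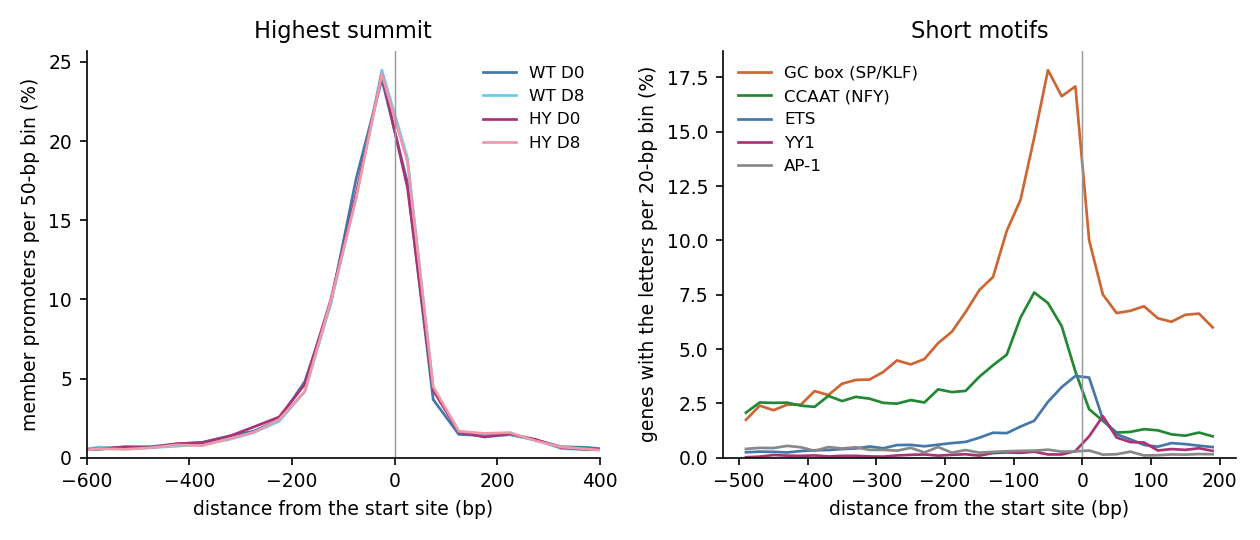
Left, position of the highest summit relative to the nearest TSS, as the percentage of the 11162 members per 50-bp bin, for each library; right, position of 5 short motifs relative to the TSS, as the percentage of genes with a member per 20-bp bin. The summit curves of the 4 libraries lie over each other with medians from -39 to -33 bp, and the GC box is most frequent from -60 to -40 bp.

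Between D0 and D8 most members kept a level within 2-fold. The median log2 ratio of D8 to D0 was -0.05 in WT and 0.02 in HY, and 93.1% and 93.3% of members lay within 2-fold. At distal regions the medians were -0.36 and -0.27, and 70.5% and 72.4% lay within 2-fold. Because a member had to pass peak calling on both days, promoters that opened or closed fully were excluded by construction, and the same holds for the distal regions. Members with a level at least 2-fold higher at D8 in both genotypes numbered 89 (0.797%, 0.648 to 0.980), against 2.70% of all regions found in every list. Those at least 2-fold lower numbered 305 (2.73%, 2.45 to 3.05), against 8.25%. Of the distal regions 4.38% (4.04 to 4.75) were higher and 13.1% (12.5 to 13.7) lower. In a bulk library a lower level can come from fewer cells with the site open or from less opening per cell, which cannot be told apart.

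These counts depended on the measure. With the deposited enrichment over local background in place of the pileup they were 10 higher and 59 lower. At 1.5-fold they were 316 and 889, against 6.56% and 18.3% of all regions found in every list. Among the 10084 members with a -log10 q of at least 5 in every list they were 51 and 152. With each ratio divided by its median over all regions found in every list, the split of higher to lower was 126 to 218 in place of 89 to 305. Except at 1.5-fold, no share over all regions found in every list was taken for these settings. Whether members stay below that share under them was not tested. The WT and HY ratios of D8 to D0 come from separate libraries and had a Pearson correlation of 0.712 across the 11162 members, which share the 2 depths and are not independent.

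The members with the highest D8 to D0 ratios were ranked by the genotype whose ratio was nearer to 1, so a member with a larger ratio in 1 genotype can rank lower. Agreement between the genotypes follows from this ranking at the members it names, here and for the lowest ratios. The intervals are not adjusted for the picking of extremes. Aqp7 (chr4:40994645-40995340), the glycerol channel of adipocytes, had 7, 39, 9 and 35 tags. Its level was 6.92-fold higher at D8 in WT (3.06 to 18.3) and 5.57-fold in HY (2.62 to 13.2). By deposited enrichment the same ratios were 3.66 and 2.53. Thrsp had 8, 29, 8 and 27 tags, a level 4.50-fold higher in WT (2.01 to 11.4) and 4.83-fold in HY (2.14 to 12.3), and its enrichment ratio in WT was 1.36. Mrap had 12, 49, 14 and 45 tags and ratios of 5.07 (2.66 to 10.5) and 4.60 (2.48 to 9.08), but its local background also went from 0.70 to 4.99 in WT and its enrichment ratio was 1.09 in both genotypes. Acss3 had 7, 26, 7 and 25. The others among the 10 highest were Pepd, Svil, 4930523C07Rik, Mcam, Ugt1a6a and 3930402G23Rik.

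Further members among the 89 were picked after their values were seen, because they passed and have known roles in lipid handling, so they do not show how frequent such genes are among the 89. Lpl, which releases fatty acids from lipoproteins, had 27, 53, 29 and 53 tags, a level 2.44-fold higher at D8 in WT and 2.62-fold in HY. Lipe, the hormone-sensitive lipase, had 2 members: at the one on chr7:26175006-26175730 the tags were 14, 60, 31 and 67 (5.32-fold and 3.09-fold), while at the other, with 46, 36, 41 and 46 tags, the level stayed within 2-fold. Plin4, a coat protein of lipid droplets, had 38, 71, 41 and 71 tags. The lipid regulators Mlxipl (11, 34, 8 and 27 tags) and Nr1h3 (18, 32, 13 and 34), the lipase inhibitor Angptl4 (25, 41, 26 and 38), the acyltransferases Agpat3 and Agpat9, and Pde3b, which mediates the antilipolytic action of insulin, were also 2-fold higher in both genotypes. Pde3b had only 8, 14, 8 and 20 tags, and its ratio of 2.17 in WT (0.850 to 5.98) has an interval that includes equal levels. Taking the member of highest level for each gene, as for all lists here, 2 of 14 genes of the adipocyte list were 2-fold higher in both genotypes (Lpl and Retn) and none was 2-fold lower, against 0.797% and 2.73% of all members. Highest level means highest in the weakest library, so for Lipe the member with 46, 36, 41 and 46 tags was taken, and the other would bring the count to 3 of 14. Pparg itself stayed within 2-fold, with 17, 18, 12 and 15 tags. Of the 7 thermogenic genes with a member none passed in either direction in both genotypes, and the list medians of the log2 ratio were 0.49 in WT and 0.31 in HY, beside -0.05 and 0.02 over all members. Zfp516, with 35, 15, 41 and 16 tags, had ratios of 0.53 and 0.56.

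The members with the lowest D8 to D0 ratios were ranked in the same way, by the genotype whose ratio was nearer to 1. Wisp1 (chr15:66722438-66723337), a matricellular protein, had 49, 7, 56 and 9 tags. Its level was 5.64-fold lower at D8 in WT (2.54 to 14.8) and 4.35-fold lower in HY (2.13 to 9.99). Dnm1 had 55, 11, 66 and 10 tags, 4.03-fold lower in WT and 4.61-fold in HY, and Gli2, a transcription factor of Hedgehog signalling that restrains fat formation, had 45, 10, 72 and 13, 3.63-fold and 3.87-fold lower. By deposited enrichment the D8 to D0 ratios were nearer to 1, at 0.58 in WT and 0.79 in HY for Wisp1, 0.75 and 0.87 for Dnm1, and 0.71 and 0.62 for Gli2. The others of the 10 lowest were Banp, 2410018L13Rik, Gm11476, Smarca2 (an ATPase of the SWI/SNF remodeller), Dpysl3, Gm3468 and Rab3il1.

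On the preadipocyte and fibroblast list 5 of 13 genes with a member were 2-fold lower in both genotypes and none was higher, against 2.73% and 0.797% of all members. They were Col1a2, Fbn1, Ly6a (Sca-1), Pdgfrb and Postn. Col1a2, a chain of type I collagen, had 64, 8, 58 and 15 tags, and Fbn1, the microfibril protein, 47, 9, 41 and 9. Col1a1, the partner chain, had 43, 18, 46 and 15 tags and passed the fold in HY only. The median log2 ratio over this list was -0.94 in WT and -0.90 in HY, against -0.05 and 0.02 over all members. Picked after the values were seen, because they passed, the contractile genes Acta2 (57, 6, 58 and 16 tags), Tagln (52, 16, 58 and 17), Myl9 (56, 14, 54 and 14), Tpm1 (64, 10, 72 and 15) and Cald1 (56, 16, 67 and 19) were also 2-fold lower in both genotypes. So were the fibulins Fbln1, Fbln2 and Fbln5, the collagenase inhibitor Timp3, the growth factor Ctgf (56, 13, 52 and 17 tags) and Smad3, a mediator of TGF-beta signalling. Pdgfra stayed within 2-fold with 50, 36, 52 and 37 tags, and Zfp423, with 23, 22, 19 and 29, was 2.19-fold higher in HY only.

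At the housekeeping lists the ratios were near those of all members. No gene of the ribosomal, proteasome, tRNA synthetase, RNA polymerase II, spliceosome, respiratory chain or cell cycle lists was past 2-fold in both genotypes, where 0.797% of all members were higher and 2.73% lower, and the list medians of the log2 ratio ranged from -0.09 to 0.11 in WT and from 0.03 to 0.14 in HY, beside -0.05 and 0.02 over all members. Cox5a had 57, 44, 52 and 43 tags, Ndufs8 64, 60, 66 and 49, and Sdha, of complex II, 25, 31, 26 and 26. Among the mitochondrial regulators Tfam had 44, 33, 59 and 34 tags, Nrf1 33, 25, 39 and 30, Esrra 70, 57, 79 and 58, and Gabpa 52, 57, 57 and 64. Ppargc1b, the coactivator Pgc1b, was a member with 16, 23, 29 and 23 tags and a D8 to D0 ratio of 1.78 in WT and 1.14 in HY.

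**Figure D5:**
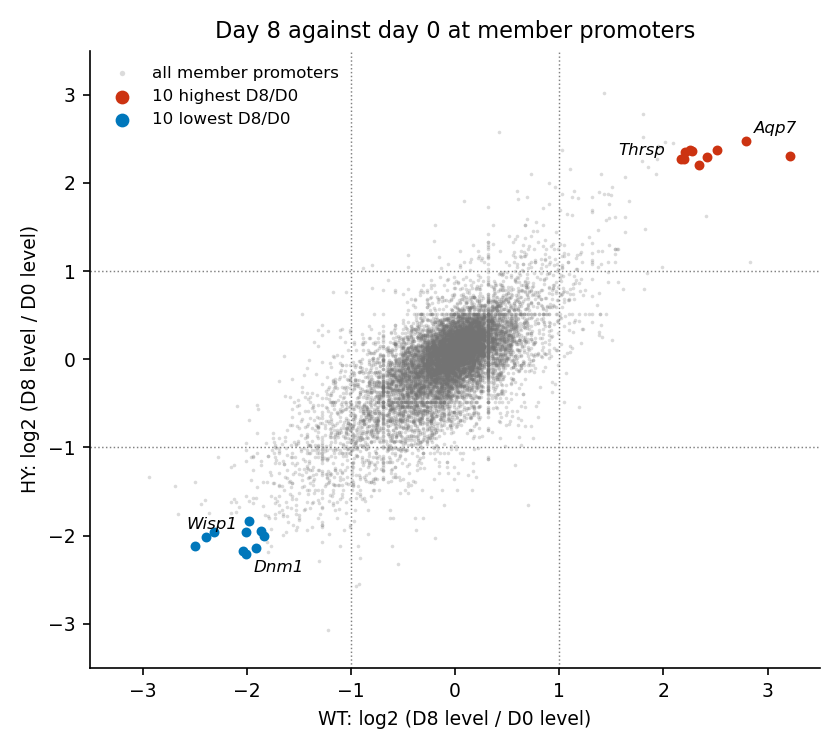
Log2 ratio of the D8 to the D0 level at each of the 11162 members (grey points), in WT (x axis) and HY (y axis), with the 10 members of highest ratio in red and of lowest in blue; dotted lines mark 2-fold. The points gather near 0 in both genotypes, and 89 lie beyond 2-fold higher and 305 beyond 2-fold lower in both.

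Members that differed between days had fewer CpG-rich promoters than those that did not. Of the 63 genes whose member was 2-fold higher at D8 in both genotypes, 38.1% were CpG-rich, as were 39.0% of the 251 genes with a 2-fold lower one and 78.0% of the 10603 others. The differences from the last class were -39.9 points (-50.9 to -27.6) and -39.0 points (-44.9 to -32.8). The ETS letters were at 1.59%, 5.98% and 20.7% of the same classes and the GC box at 42.9%, 55.8% and 70.7%. Read the other way, of the 1904 members with the ETS letters 1 was 2-fold higher at D8 and 14 lower, and of the 7904 without them 59 and 222. The classes were cut from the measured ratios, so these shares describe them and were not tested. CpG and letters were read at the TSS, which can lie far from the summit. The WT D0 summit was at -1348 bp at Mrap and at -1136 bp at Thrsp. Members with a CpG-rich promoter had median pileups of 38, 30, 44 and 30 tags, against 33, 21, 38 and 22 at those without. Lower counts vary more, and the part of this in passing 2-fold was not tested.

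Between the genotypes the ratios had a smaller spread than between days, with an SD of log2 ratios of 0.27 at D0 and 0.31 at D8 against 0.51 in WT and 0.52 in HY. At D0 the median log2 ratio of HY to WT was 0.09, on D8 it was 0.16, and 99.4% and 99.0% of members lay within 2-fold. No member was 2-fold higher in HY on both days, which allows a share of up to 0.0344%, against 0.0419% of all regions found in every list, and 3 were 2-fold lower, against 0.0335%. At 1.5-fold 89 members were higher in HY and 16 lower, where the shares over all regions found in every list were 1.09% and 0.411%, so the counts leaned the other way there, as they did over all those regions. Among the 10084 members with a -log10 q of at least 5 in every list 0 were 2-fold lower. The HY to WT ratios of the 2 days had a Pearson correlation of 0.102 across members. The genotypes come from separate cultures, so genotype and culture cannot be told apart.

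The 3 members lower in HY were at H2-Q7, H2-Q8 and Apod. They were picked by their ratios on both days, and the intervals are not adjusted for this. H2-Q7 (chr17:35575798-35576256), a class I molecule of the Qa region, had 34, 41, 15 and 8 tags. Its level was 2.43-fold lower in HY at D0 (1.29 to 4.81) and 4.77-fold at D8 (2.21 to 11.8). H2-Q8 had 25, 20, 13 and 6 tags. The summit sequences of both occur at 2 places in the genome, and the part of related genes in their values was not tested. Apod (chr16:31303242-31304034), which encodes the lipid carrier apolipoprotein D, had a unique summit with 35, 13, 18 and 6 tags, 2.09-fold lower at D0 (1.15 to 3.92) and 2.02-fold at D8 (0.715 to 6.47), and the latter interval includes equal levels. At Epha7, an ephrin receptor and the member with the highest HY to WT ratio when ranked by the day nearer to 1, the tags numbered 20, 14, 44 and 26, with ratios of 2.05 at D0 (1.18 to 3.67) and just under 2-fold at D8. Ndfip2 followed with 13, 12, 30 and 22 tags. Elovl7, lower in that ranking, had a larger ratio at D0 (2.56) and a smaller one at D8 (1.91). By deposited enrichment no member passed 2-fold in either direction on both days.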

How the data were processed

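ATAC-seq peak lists of 4 mouse libraries (mm9), 1 per group, were used. Per the labels and the study's methods, reads were trimmed, mapped with Bowtie2, sorted with SAMtools and freed of duplicates with Picard, and the authors called peaks for each library with MACS. Tool versions, the peak threshold and any shift of reads for the Tn5 insertion are not given in the sources used here, and an unshifted read moves a summit by a few bases only. The deposited lists give for each peak the fold enrichment of the summit over local background (a ratio), its -log10 p and its -log10 q. They also hold a deposited score, the scaled -log10 q by the MACS convention, which was not used for any result.

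From fold and -log10 p the whole number of tags at each summit (its pileup) and the local background were solved, within 0.002 for 100% of peaks. The lowest background of a list was taken as its genome-wide rate and relative depth, and a level is the pileup over that rate. The lists hold no read totals, so depth is known only in relative terms. A region took its highest peak in each library. Peaks were merged with BEDTools 2.31.1 (1 bp) and analysed with Python 3.11.15, pandas 2.3.3, NumPy 2.4.6 and SciPy 1.17.1, with GENCODE vM1 and the mm9 genome. Shares have Wilson 95% intervals, their differences Newcombe intervals and folds exact ones, all for counting error only; tags without molecular identifiers are not independent molecules. With 1 library per group no test was made. Scripts were tested on simulated data.

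Members, gene lists and rules were chosen with earlier results of these data known. Genes were named as the 10 members of highest minimum level, the 10 of highest and of lowest D8 to D0 ratio, and the 5 of highest and of lowest HY to WT ratio. Each ratio was ranked by the genotype or day whose ratio was nearer to 1. Also named were the 5 members of lowest -log10 q in their weakest list and 5 promoter regions with a peak in exactly 3 lists. The latter had the highest -log10 q in the weakest of these 3 lists. The 5 strongest members at divergent pairs, the 5 widest and members of 17 gene lists were named too.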

Additional observations from a re-analysis of the deposited data

Results flagged for a closer look

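Chromosome X was outside the comparisons. On it 325 of 2132 merged regions were promoters with a peak in every list, reaching 317 of 932 protein-coding genes (34.0%, Wilson interval 31.0 to 37.1), and their median pileups were 31, 21, 35 and 21 tags for WT D0, WT D8, HY D0, HY D8. There is no control library to set this against.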

How the results depend on the processing

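The member count of 11162 ranged from 7763 to 12236 under the alternatives and stayed within 1.5 times. With deposited enrichment in place of the scaled pileup, 10 members were 2-fold higher and 59 lower at D8 in both genotypes, and 0 were lower in HY. At 1.5-fold the counts were 316 and 889 between days, 89 higher in HY and 16 lower in HY. Among the 10084 members with a -log10 q of at least 5 in every list they were 51, 152 and, for lower in HY, 0. Shares over all regions found in every list were taken only for the scaled pileup at 2-fold and 1.5-fold, and are given with the results. Without members whose summit is repeated, a setting chosen after seeing the data, 1 was lower in HY. The share of genes with a member was 47.7% with the stricter q, 48.2% with lists of equal length, 47.1% with only the most upstream TSS and 52.8% with a window reaching 2000 bp upstream and 1000 bp downstream. In the 200 bp around the WT D0 summit, shorter than the window used, 80.8% of promoters were CpG-rich, and the motif shares were 64.5% (GC box), 17.4% (ETS), 4.20% (NRF1), 4.03% (YY1), 33.2% (CCAAT), 3.24% (CREB/ATF), 2.43% (TATA box), 8.07% (E-box) and 3.58% (AP-1). With the most upstream TSS of every gene, chosen after seeing the data, they were 70.6% (CpG-rich), 65.2% (GC box), 18.8% (ETS), 4.84% (YY1) and 6.48% (TATA box). The cause of the other shifts was not tested. No paired analysis was made, because the labels give no replicate numbers and each group had 1 library. Ratios were taken within each genotype and within each day, with no test. Depth limits low members: a ratio between 7 and 26 tags has a wide interval, and promoters below peak calling in 1 library were not members.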
